A study of Mus musculus with 10 samples.

Results

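The pyruvate dehydrogenase complex and the enzymes that switch it on and off were followed by 10 genes, the kinases Pdk1, Pdk2, Pdk3 and Pdk4, the phosphatase Pdp2 and the subunits Pdha1, Pdhb, Dlat, Dld and Pdhx. All probe sets whose platform annotation gave exactly 1 of these symbols were taken, which left 18 probe sets for the 10 genes out of 45037 tested probe sets and 18193 named genes. A probe set is the group of short array probes that reads 1 transcript. The study compared livers of lactating QSi5 mice on diets of high (HGI) and low (LGI) glycaemic index, with 5 mice per diet and 1 array per mouse. Both diets were eaten from pregnancy until lactation peaked, when the liver was taken. The HGI food was 51.4% glucose by weight with a gross energy of 15.6 MJ per kg, while in the LGI food the same share was a starch that the labels call high amylase (Hi-Maze), with 16.3 MJ per kg. The labels give HGI mice a positive and LGI mice a negative energy balance, so diet and energy balance cannot be told apart. The sources used here give no ages.

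The complex sits in the mitochondrial matrix and turns pyruvate into acetyl-CoA, which commits glucose carbon to oxidation or to fat. E1, built from the Pdha1 and Pdhb proteins, removes carbon dioxide from pyruvate. E2, the Dlat protein, passes the acetyl group to coenzyme A on a lipoyl arm, E3, the Dld protein, reoxidises that arm, and the Pdhx protein anchors E3 to the core. The kinases phosphorylate the E1 alpha subunit and stop the reaction, and the phosphatase reverses this. In liver, Pdk4 transcription is known to rise in fasting and to be held down by insulin, and Pdk2 is known as a main kinase of the fed liver. The arrays read transcripts only, and neither phosphorylation nor enzyme activity was measured.

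Promoters of 3 members are shown because these genes, Pdk4, Pdk1 and Dlat, held all 5 member probe sets with an unadjusted p under 0.05. Each is the 250 bases before the annotated transcription start in RefSeq (build GRCm38.p6), written along the gene's own strand. Capitals mark matches on either strand to the hypoxia response core (ACGTG or GCGTG), the FoxO core (TGTTTAC), the nuclear receptor core (AGGTCA) and the CCAAT box. For Pdk1 the table holds a further start, which is not shown.
Pdk4, chr6:5496279-5496528, minus strand: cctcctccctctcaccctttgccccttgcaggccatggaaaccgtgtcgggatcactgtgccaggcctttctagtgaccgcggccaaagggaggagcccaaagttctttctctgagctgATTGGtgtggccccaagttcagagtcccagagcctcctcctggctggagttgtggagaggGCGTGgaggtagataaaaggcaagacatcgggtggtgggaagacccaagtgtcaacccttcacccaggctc
Pdk1, chr2:71872974-71873223, plus strand: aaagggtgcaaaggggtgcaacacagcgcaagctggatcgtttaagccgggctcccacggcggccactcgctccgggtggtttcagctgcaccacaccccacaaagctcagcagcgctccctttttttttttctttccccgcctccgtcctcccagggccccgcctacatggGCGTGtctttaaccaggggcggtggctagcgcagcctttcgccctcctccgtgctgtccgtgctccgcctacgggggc
Dlat, chr9:50659781-50660030, minus strand: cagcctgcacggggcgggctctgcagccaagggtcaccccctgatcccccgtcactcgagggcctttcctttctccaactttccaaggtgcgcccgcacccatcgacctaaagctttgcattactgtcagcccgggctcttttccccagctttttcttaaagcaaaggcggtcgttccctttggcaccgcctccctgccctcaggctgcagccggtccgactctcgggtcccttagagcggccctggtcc

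The Pdk4 window held 1 hypoxia response core, 71 to 67 bases before the start, and 1 CCAAT box in reverse, 131 to 127 bases before it. The Pdk1 window held 1 hypoxia response core, 78 to 74 bases before the start, and the Dlat window held none of these motifs. Among all 32851 promoters of this length in the table, 38.6% held a hypoxia response core, 33.8% a CCAAT box, 14% a nuclear receptor core and 3.2% a FoxO core. A match is only a string of letters, and the arrays did not measure binding.

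No member probe set passed the threshold, an adjusted p under 0.05 in limma over all 45037 probe sets, where 0.0644% of all probe sets did. Without adjustment 5 of the 18 had a p under 0.05, and all 5 stood higher in HGI: 2 of Pdk1, 2 of Dlat and the 1 of Pdk4. Over all probe sets 7.54% had such a p, and 2.76% did so with the higher level in HGI. The count was 2 without LGI 4, 3 without HGI 2, and without HGI 3 or HGI 4 only 2 of the members' probe sets with such a p stood higher in HGI. The 5 probe sets stand for 3 genes and are not separate results, since probe sets of 1 gene read that gene in the same mice. With 1 probe set per gene, that of the highest mean, 2 of 10 members had an unadjusted p under 0.05, against 9.30% of all named genes in either direction. Both stood higher in HGI, where 3.07% of all named genes had such a p with the higher level in HGI. The groups of 5 mice overlapped at every member probe set, while 1.67% of all probe sets separated them. The adjusted p of the 18 lay between 0.413 and 0.991.

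**Figure D1:**
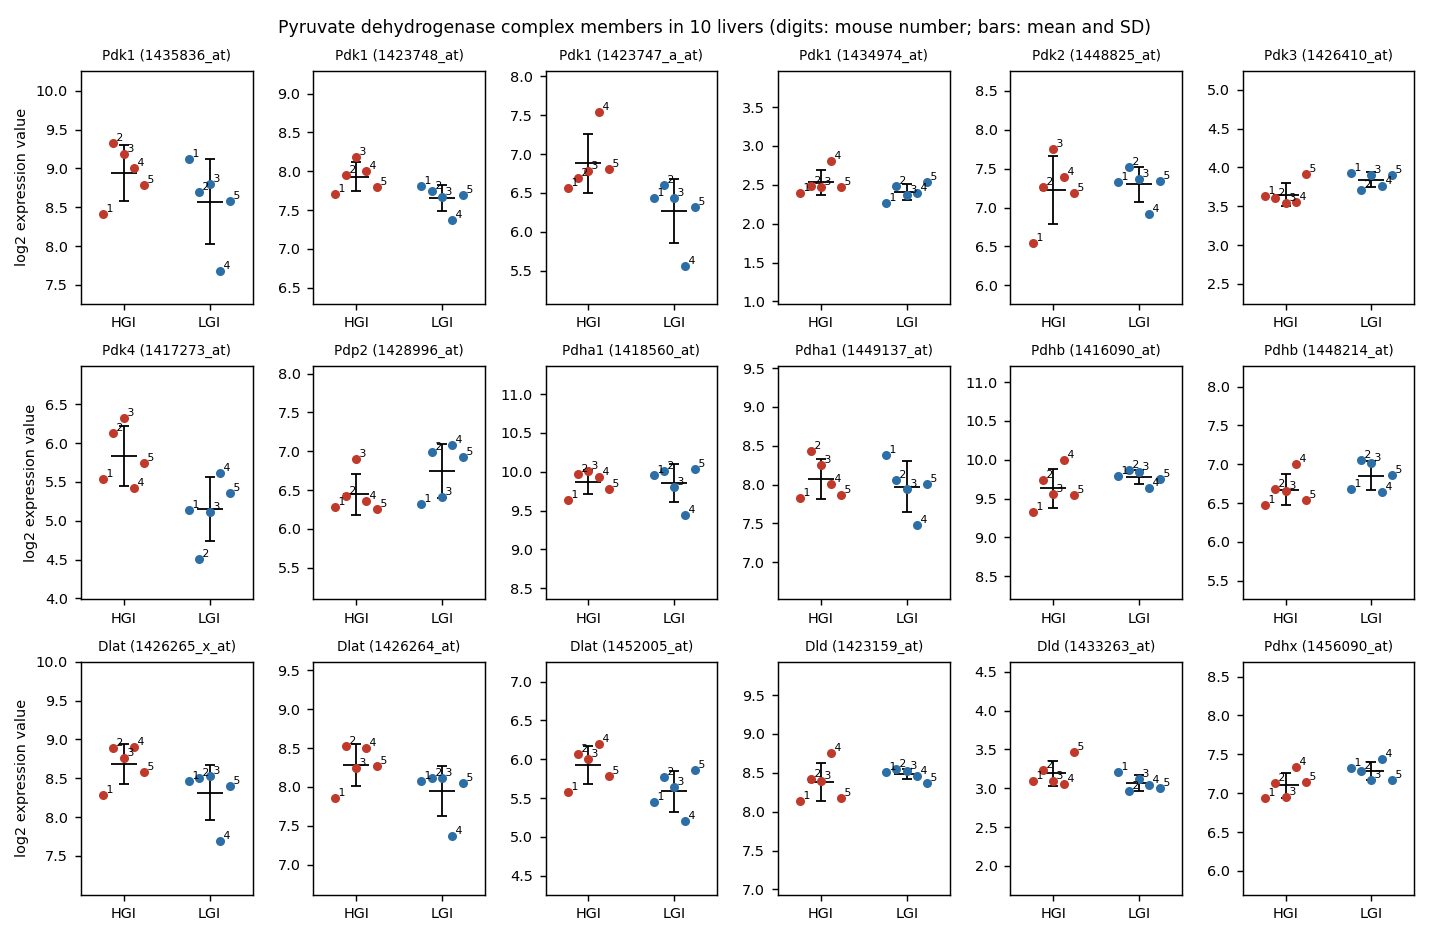
Log2 expression value (vertical axis, the same span of 3 log2 units in every panel) of each of the 18 member probe sets in the 5 HGI and 5 LGI mice. Points are mice, digits their numbers, and bars the mean and SD of each diet; Pdk4 lies at 5.42 to 6.32 in HGI and 4.51 to 5.61 in LGI, and LGI 4 sits apart at the bottom of its diet for Dlat and Pdk1.

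Pdk4, the kinase induced by fasting and fatty acids, had the largest difference of the members. Its only probe set, 1417273_at, read 5.54, 6.13, 6.32, 5.42 and 5.75 log2 in HGI mice 1 to 5 and 5.14, 4.51, 5.12, 5.61 and 5.36 in LGI mice 1 to 5. All 5 HGI mice lay above the LGI median, 3 of them above every LGI mouse, and the overlap came from HGI 1 and HGI 4 at the bottom of their diet and LGI 4 at the top of its own. The mean was 5.83 ± 0.38 in HGI and 5.15 ± 0.41 in LGI (log2, SD, n = 5 each), a difference of 0.68 ± 0.21 (log2 ± SE) or 1.61-fold, with a 95% interval of 1.18-fold to 2.19-fold. It did not pass over all probe sets (limma adjusted p = 0.413, unadjusted p = 0.00546, place 593 of 45037 by p). A two-sided exact permutation of the 10 arrays gave p = 0.0317, where the smallest p the design allows is 0.00794. The Pdk4 difference stayed above 0 whichever array was left out, from 0.52 without LGI 2, the mouse with the lowest Pdk4, to 0.80 without LGI 4.

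Pdk1, the kinase known as a target of hypoxia signalling, was read by 4 probe sets, all with a higher mean in HGI. The probe set with the largest difference, which was not the brightest, was 1423747_a_at. It read 6.56, 6.70, 6.79, 7.54 and 6.81 log2 in HGI mice 1 to 5 and 6.43, 6.60, 6.44, 5.56 and 6.31 in LGI mice 1 to 5. HGI mice 2 to 5 lay above every LGI mouse, with HGI 4 far above its diet and LGI 4 far below its own. The difference was 0.61 ± 0.21 (log2 ± SE; 6.88 ± 0.38 against 6.27 ± 0.41, SD, n = 5 each; limma adjusted p = 0.491, unadjusted p = 0.0106), and it was 0.43 without LGI 4 and 0.45 without HGI 4. A two-sided exact permutation gave p = 0.0159.

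The remaining Pdk1 probe sets gave smaller differences. At 1423748_at the HGI mice read 7.71, 7.95, 8.18, 8.01 and 7.80 log2 and the LGI mice 7.81, 7.74, 7.66, 7.38 and 7.70, so that 3 HGI mice lay above every LGI mouse. The difference there was 0.27 ± 0.11 (log2 ± SE, limma adjusted p = 0.576, unadjusted p = 0.0255). The brightest, 1435836_at, spread more widely, from 8.41 to 9.33 in HGI and from 7.68 to 9.13 in LGI. It stood at 0.37 ± 0.24 (limma adjusted p = 0.782, unadjusted p = 0.141), with a two-sided exact permutation p of 0.262. The difference was 0.14 without LGI 4, whose value of 7.68 lay under the next lowest of 8.58. The last, 1434974_at, was dimmer than the median of each of the 10 arrays (means of 2.53 and 2.41).

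Pdk2, the kinase best known from fed liver, did not differ by more than the spread between mice. Its HGI values were 6.54, 7.26, 7.75, 7.39 and 7.19 log2 and its LGI values 7.33, 7.52, 7.37, 6.92 and 7.34. The widest spread was within HGI, between HGI 1 at 6.54 and HGI 3 at 7.75, and the LGI mice lay inside that range. The difference was -0.07 ± 0.18 (log2 ± SE, limma adjusted p = 0.966), with a 95% interval from -0.47 to 0.32. It turned to 0.10 without HGI 1, so no direction can be given.

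Pdk3, a kinase known mainly from testis, kidney and brain, lay below the median of all 10 arrays, at 3.55 to 3.91 log2 in HGI and 3.71 to 3.93 in LGI. Those arrays had medians of 3.91 to 3.97, and its difference was -0.19 (limma adjusted p = 0.671).

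Pdp2, the phosphatase that returns the complex to its active form, stood lower in HGI on average. It read 6.28, 6.43, 6.90, 6.36 and 6.26 log2 in HGI and 6.33, 6.99, 6.41, 7.08 and 6.93 in LGI. LGI 2, LGI 4 and LGI 5 lay above every HGI mouse, while LGI 1 and LGI 3 lay among the HGI mice, and HGI 3 was well above its diet. The difference was -0.30 ± 0.17 (log2 ± SE; 6.44 ± 0.26 against 6.75 ± 0.35, SD, n = 5 each; limma adjusted p = 0.730, unadjusted p = 0.0907). It was -0.42 without HGI 3 and -0.18 without HGI 1 and LGI 4 together, and the two-sided exact permutation p was 0.119.

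Among the subunits, Dlat, the E2 that forms the core, stood higher in HGI at all 3 of its probe sets, by 0.33 to 0.37. At the brightest, 1426265_x_at, whose name marks probes that may also bind other transcripts, the values were 8.29, 8.88, 8.76, 8.90 and 8.59 log2 in HGI and 8.47, 8.50, 8.53, 7.69 and 8.39 in LGI. HGI mice 2 to 5 lay above every LGI mouse and HGI 1 lay below all LGI mice but LGI 4, whose 7.69 lay under a next lowest of 8.39. The difference was 0.37 ± 0.16 (log2 ± SE; 8.69 ± 0.25 against 8.32 ± 0.35, SD, n = 5 each; limma adjusted p = 0.650, unadjusted p = 0.0430), or 1.29-fold with a 95% interval of 1.01-fold to 1.65-fold. The two-sided exact permutation p was 0.0794.

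The other Dlat probe sets had differences of like size. At 1426264_at the HGI mice read 7.85 to 8.53 log2 and the LGI mice 7.37 to 8.12 (limma adjusted p = 0.683), and at 1452005_at 5.58 to 6.20 and 5.21 to 5.86 (limma adjusted p = 0.608). HGI 1 and LGI 4 were the lowest of their diets at all 3. Without LGI 4 the differences were 0.21, 0.19 and 0.24, and without both low mice 0.31, 0.29 and 0.33.

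Pdha1 carries the serines that the kinases phosphorylate, and its transcript differed little between the diets. At 1418560_at it read 9.64, 9.97, 10.01, 9.93 and 9.78 log2 in HGI and 9.96, 10.01, 9.81, 9.45 and 10.04 in LGI. The ranges lay over each other, with the lowest value again in HGI 1 and in LGI 4. The difference was 0.01 ± 0.12 (log2 ± SE, limma adjusted p = 0.991), and its 95% interval ran from -0.24 to 0.27, that is from 1.18-fold lower to 1.21-fold higher in HGI. The dimmer 1449137_at gave 0.10, with an interval from -0.24 to 0.45. Neither sign is settled, as the values without LGI 4 were -0.09 and -0.02.

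Pdhb, the beta subunit of E1, stood slightly lower in HGI at both probe sets, by 0.15 and 0.18. At 1416090_at the HGI mice read 9.33, 9.73, 9.56, 9.996 and 9.54 log2 and the LGI mice 9.79, 9.87, 9.84, 9.64 and 9.75. The LGI mice lay close together (SD 0.09) inside the wider HGI range (SD 0.25), and HGI 4 was the highest of all 10. The difference was -0.15 ± 0.11 (log2 ± SE, limma adjusted p = 0.832), with an interval from -0.39 to 0.10, and it was -0.07 without HGI 1 and -0.24 without HGI 4. At 1448214_at the interval ran from -0.43 to 0.07 (limma adjusted p = 0.773).

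Dld, the E3 that this complex shares with the dehydrogenases of 2-oxoglutarate and of branched-chain 2-oxoacids and with the glycine cleavage system, had 1 probe set with signal, 1423159_at. Its HGI mice read 8.14, 8.42, 8.40, 8.75 and 8.18 log2 and its LGI mice 8.52, 8.55, 8.52, 8.46 and 8.37. As with Pdhb, the LGI mice were tightly grouped (SD 0.07) and the HGI mice spread around them (SD 0.25). The difference was -0.11 ± 0.11 (log2 ± SE, limma adjusted p = 0.891) with an interval from -0.34 to 0.13. It was -0.05 without HGI 1 and -0.20 without HGI 4. The other probe set, 1433263_at, was dimmer than every array's median.

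Pdhx, which tethers E3 to the core, stood at -0.18 ± 0.09 (log2 ± SE, limma adjusted p = 0.713, unadjusted p = 0.0785). It read 6.94, 7.14, 6.96, 7.34 and 7.14 log2 in HGI and 7.33, 7.29, 7.17, 7.44 and 7.18 in LGI. HGI mice other than HGI 4 lay below every LGI mouse, and LGI 4, low for most members, was the highest LGI mouse here. The difference was -0.24 without HGI 4 and -0.10 without HGI 1 and LGI 4.

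**Figure D2:**
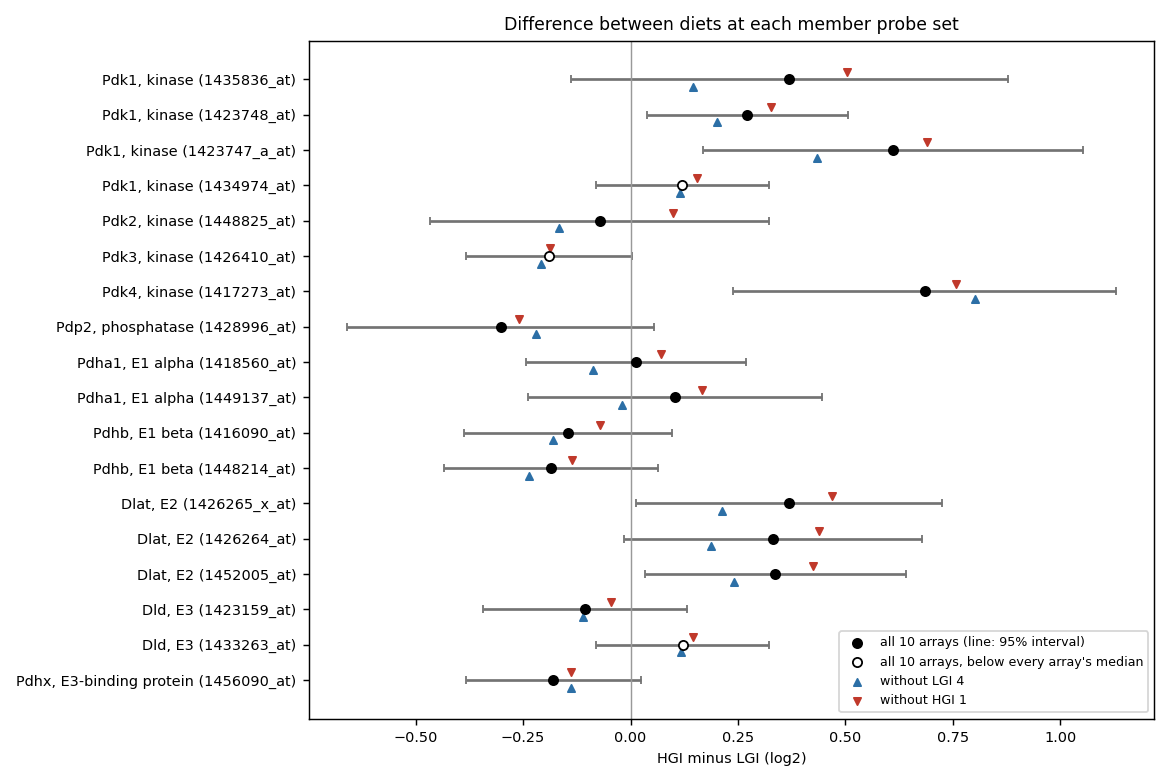
Difference between the diets (horizontal axis, HGI minus LGI in log2) at each member probe set, with its 95% interval from limma; open points are dimmer than every array's median, upward triangles leave out LGI 4 and downward triangles HGI 1. Pdk4 has the largest value (0.68), the 3 Dlat points lie between 0.33 and 0.37, and the Pdk2 and Pdha1 points change sign without 1 of these mice.

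HGI 1 and LGI 4 stood at the edge of their diet for most members. Of the 15 member probe sets above the median of every array, HGI 1 was the lowest HGI mouse at 13 and LGI 4 the lowest LGI mouse at 11 and the highest at 3 (Pdk4, Pdp2 and Pdhx). HGI 4 was the highest HGI mouse at 7 of them. Over all 20335 probe sets this bright, HGI 1 was the lowest of its diet at 51.5% and LGI 4 at 31.5%, so HGI 1 was low well beyond the complex. LGI 4 was the highest of its diet at 26.7% of them and HGI 4 at 26%, so high places of both also occurred beyond the complex. HGI 1 also had the narrowest spread of values (SD of 2.16 log2, against 2.26 to 2.31 in the others), and these 2 arrays had the lowest mean correlation with their own diet (0.989 and 0.988). Without both, 6 member probe sets, of Pdk1, Dlat and Pdk4, had an unadjusted p under 0.05, all higher in HGI. In either direction 9.48% of all probe sets had one, and the share higher in HGI was not counted there. Of the members 0 passed the threshold, and the smallest adjusted p was 0.213 (Pdk4, 0.87 log2). All differences are of whole liver RNA, in which a smaller number of cells of a type and less RNA per cell cannot be told apart.

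**Figure D3:**
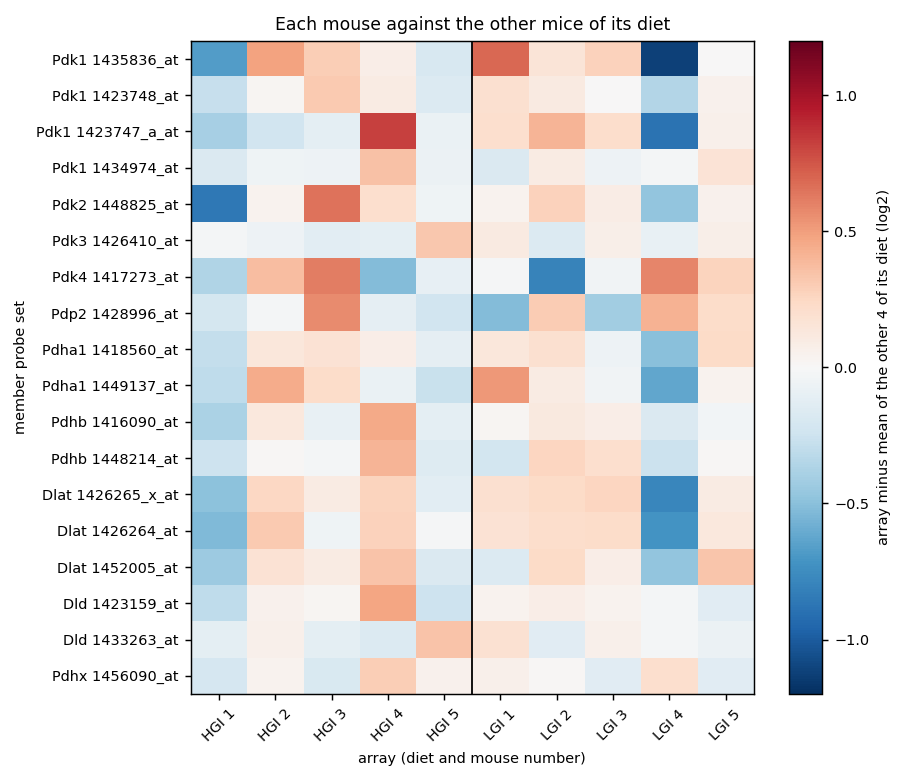
Each mouse set against the other 4 of its diet at the 18 member probe sets; colour gives the array's value minus the mean of those 4 (log2), red above and blue below. HGI 1 is blue at nearly every bright member and LGI 4 at Pdk1, Pdk2, Pdha1 and Dlat but red at Pdk4 and Pdp2.

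Other genes of pyruvate metabolism were described with 1 probe set per gene, and 0 of those in the 5 lists below passed the threshold. All 18193 named genes had a median difference of -0.03, with 10582 below 0 and an unadjusted p under 0.05 at 9.30%. Of 13 measured genes of pyruvate entry and use, 9 lay above 0 and 4 below, with a median of 0.14 (0.08 without LGI 4 and 0.22 without HGI 1), and 7 had an unadjusted p under 0.05, against the 9.30% of all named genes. Cs, citrate synthase, which takes up the acetyl-CoA that the complex makes, stood at 0.35 ± 0.12 (log2 ± SE, limma adjusted p = 0.507). Pklr, the liver pyruvate kinase that makes pyruvate, stood at 0.88 ± 0.34 (limma adjusted p = 0.563) and at 0.50 without LGI 4. The alanine aminotransferases Gpt and Gpt2, which exchange pyruvate with alanine, stood at -0.52 ± 0.15 and -0.28 ± 0.11 (limma adjusted p = 0.348 and 0.541).

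All 9 genes listed with the sister 2-oxoacid dehydrogenases and their regulators lay below 0, with a median of -0.24, where 10582 of the 18193 named genes also lay below 0. The list includes Gcsh, of the glycine cleavage system, which stood at -0.02. An unadjusted p under 0.05 was found for 4 of the 9, against 9.30% of all named genes in either direction, and for 2 without HGI 1 and LGI 4. The members' own median at their brightest probe sets was -0.09, with 6 of 10 below 0, and the difference between the lists was not tested. Bckdhb and Dbt, subunits of the branched-chain complex, stood at -0.34 ± 0.10 and -0.34 ± 0.13 (log2 ± SE, limma adjusted p = 0.378 and 0.537). The list's median was -0.13 without HGI 1 and -0.18 without HGI 1 and LGI 4, with 8 of 9 below 0 in both cases and also after quantile normalization or without LGI 4. Of 16 genes for other regulators and for lipoate and thiamine supply, 6 lay above 0 and 10 below (median -0.02, but 0.01 after quantile normalization and 0.02 without HGI 1). Lias, the lipoyl synthase on which the E2 arm depends, stood at -0.38 ± 0.11 (limma adjusted p = 0.412) and at -0.23 without HGI 1 and LGI 4. Pdpr, the regulatory subunit of the phosphatase, stood at -0.30 ± 0.12 (limma adjusted p = 0.585) and at -0.16 without these mice. The thiamine carrier Slc19a2 stood at 0.27, at 0.16 without LGI 1 and at 0.41 without HGI 1, and Oxsm, of mitochondrial fatty acid synthesis, at 0.09, with 0.02 without LGI 5 and 0.15 without LGI 4.

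Factors known to act on Pdk4 transcription showed no common direction, with 5 of 13 above 0 and a median of -0.10 that became 0.02 without HGI 1. Ppard stood at 0.34 ± 0.13 and the glucocorticoid receptor gene Nr3c1 at 0.19 ± 0.12 (log2 ± SE, limma adjusted p = 0.539 and 0.784; Nr3c1 0.13 without HGI 3). Esrra stood at -0.21 ± 0.11 and Hnf4a at -0.11 ± 0.08 (limma adjusted p = 0.701 and 0.819). Of 11 liver genes known to rise in fasting, as Pdk4 does, 4 lay above 0 and 7 below, with a median of -0.17 that was 0.12 without HGI 1 and LGI 4. Igfbp1, which insulin represses, stood at 1.504 ± 0.36 and Fgf21, a fasting hormone of liver, at 0.64 ± 0.23 (limma adjusted p = 0.236 and 0.508). Cyp4a14 and Acot1, of the same list, lay the other way, at -2.09 ± 0.58 and -1.08 ± 0.33 (limma adjusted p = 0.338 and 0.436). Without HGI 1 and LGI 4 they stood at -1.39 and -0.72, and Fgf21 at 0.88.

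**Figure D4:**
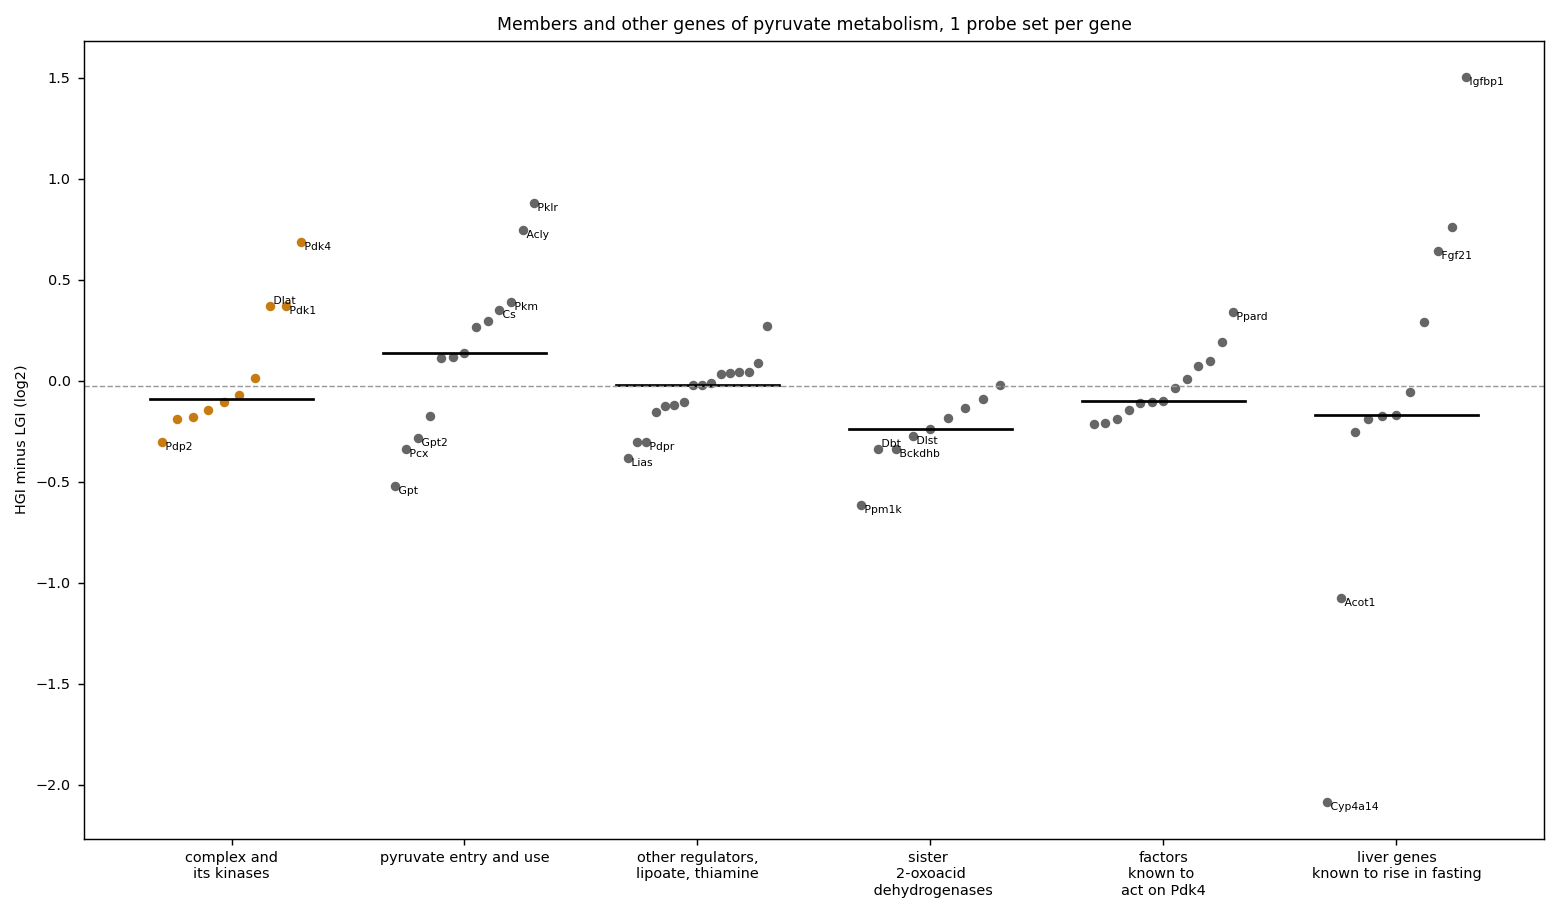
Difference between the diets (vertical axis, HGI minus LGI in log2) of the 10 members (left, at their brightest probe set) and of the genes of 5 related lists; points are genes, thick lines list medians and the dashed line the median of all named genes (-0.03). Names are given to points beyond 0.25 in size, for lists only with an unadjusted p under 0.05. The medians are -0.09 for the members and -0.24 for the list of sister dehydrogenases, which includes Gcsh.

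The 5 genes whose level over the 10 arrays followed that of Pdk4 most closely, among 7161 named genes with a mean of at least 6 log2, were Maz (Pearson's r = 0.93 and Spearman's rho = 0.92), Fpgs (0.85 and 0.87), Arid5b (0.84 and 0.90), Peg3 (0.81 and 0.89) and Serpina11 (0.81 and 0.87). Being the highest of so many, these values are a description and carry no test. Without LGI 2 and HGI 3, the mice farthest from the Pdk4 median, r was 0.79, 0.79, 0.70, 0.89 and 0.75. When the mean of each diet was first removed it was 0.87, 0.81, 0.76, 0.61 and 0.59. Serpina11 was past the threshold between the diets (1.01 log2, limma adjusted p = 0.0302), but not in every alternative (adjusted p from 0.0106 without LGI 4 to 0.115 without LGI 5, and 0.0761 with the replicate number as a block). The other 4 did not pass, with Peg3 at 0.84 (limma adjusted p = 0.279), which passed without HGI 1 and LGI 4 (1.13 log2, limma adjusted p = 0.0414).

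Markers of liver and of other cells were read beside these values. All 6 measured hepatocyte markers lay above the median of every array, with a summed signal on the linear scale of 95055 to 99576 in HGI and 87993 to 101084 in LGI. Of 5 muscle markers, from a tissue rich in Pdk4 and Pdk2, 4 were dimmer than each array's median, and their summed signal was 54.1 to 60.1 in HGI and 58.5 to 61.9 in LGI. The 8 Kupffer cell and macrophage markers summed to 1900 to 3388 in HGI and 1596 to 2665 in LGI, and the 7 endothelial markers to 1154 to 1697 and 964 to 1475. All markers of both sets had a higher mean in HGI, where 7611 of the 18193 named genes did, and 0 of these markers passed the threshold. The 3 measured erythroid markers summed to 482 to 1260 in HGI and 173 to 651 in LGI. Slc4a1 stood at 2.25 log2 and Alas2 at 1.34 (limma adjusted p = 0.0625 and 0.262). Hba-a1, below every array's median, stood at 0.02. The 3 adipocyte markers summed to 119 to 401 and 94.4 to 153. Of these, Fabp4 stood at 1.08 log2, while Adipoq and Lep, both below every array's median, stood at -0.04 and 0.02. The 4 biliary markers summed to 73.8 to 126 in HGI and 80.9 to 94.8 in LGI, and the 4 stellate cell and fibroblast markers to 888 to 1225 and 817 to 1275. The part of these cells in the members' differences was not tested.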

How the data were processed

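Liver RNA of 10 mice was read on 1 array each, with probe set names of the Affymetrix form. The authors deposited 1 log2 value for each probe set and mouse. RMA, a method that corrects background, normalizes between arrays and summarises probes, and R 2.6.1 come from the submitters' processing notes. The sources used here name no genome build. Of 45101 probe sets, 64 control probe sets were left out. Platform annotation gave 34945 probe sets 1 symbol, 932 several and 9160 none; gene IDs of a RefSeq table changed 0 symbols. All 10 members and 12 member promoters were found by symbol.

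HGI was compared with LGI by limma 3.58.1 (R 4.3.3, lmFit and eBayes) over all 45037 probe sets, with Benjamini-Hochberg adjustment and a threshold of 0.05. Intervals are limma's at 95%. The procedure was tested on simulated data with independent noise at each probe set and planted shifts larger than any member's difference. That test does not show how the procedure performs at differences of the members' size or where whole arrays shift. The 5 arrays per diet limit the precision. Alternatives left out dim probe sets (2 filters) or arrays, repeated quantile normalization, centred arrays on their medians, weighted arrays, let the variance follow the level with a robust fit, kept a single probe set for each gene, or added the replicate number as a block. A limma p-value sets the difference between the diets against the spread between these mice, which limma adjusts with the help of all probe sets.

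The members, the lists and the tests were chosen with earlier results of these data known. Named were all members at every probe set; in each list the genes past the threshold and the 2 of smallest p in each direction; and the 5 genes most like Pdk4. In list medians each gene counts by its probe set of highest mean. Some list genes and markers, Mpc2 and Cyp4a10 among them, were not analysed here.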

Additional observations from a re-analysis of the deposited data

Results flagged for a closer look

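Each diet's 5 values at each of the 18 member probe sets were searched for a mouse far from the other 4, in the sense that its gap to the nearest was more than 0.71 of the whole range. Of 36 groups, 7 held such a mouse, where chance flags about 1 in 20 groups, and probe sets of 1 gene are not separate cases. The same search was not run over all probe sets, so the count cannot be called particular to the members. LGI 4 was far below its diet at Pdk1 (5.56 log2 at 1423747_a_at, next lowest 6.31) and at Dlat (7.69 at 1426265_x_at, next lowest 8.39, and 7.37 at 1426264_at, next lowest 8.05). HGI 4 was far above its diet at Pdk1 (7.54 at 1423747_a_at, next highest 6.81), and at 2.81 at the dim Pdk1 probe set 1434974_at. HGI 3 stood high for Pdp2 (6.90, next highest 6.43), and HGI 5 for the dim Pdk3 (3.91, next highest 3.63).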

How the results depend on the processing

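No member probe set passed the threshold under any of the 19 alternatives run, leaving out each array included. The filter for a mean of at least 6 log2 kept 13 of the 18 member probe sets and left out Pdk4. Of these 13, 2 had an unadjusted limma p under 0.05, where 11% of all probe sets kept had one. Of 326 member values under these alternatives 8 changed sign, all of them at Pdk2 or Pdha1: Pdk2 ranged from -0.20 to 0.10 and Pdha1 from -0.088 to 0.070 (1418560_at) and from -0.021 to 0.21 (1449137_at) when 1 array was left out, and without HGI 1 and LGI 4 together Pdk2 stood at 0.00499 and Pdha1 (1418560_at) at -0.031. The smallest adjusted p of Pdk4 was 0.171, with array weights. The count over all probe sets, 29 (17 higher and 12 lower in HGI), was 63 after quantile normalization again, 64 with array weights, 58 without HGI 1 and LGI 4, 17 with median centring (13 higher and 4 lower), 30 with 1 probe set per gene (12 higher and 18 lower) and 5 to 49 when 1 array was left out. It was 5 higher and 0 lower without LGI 2, LGI 3 or LGI 5, 7 higher and 0 lower without HGI 5, and 21 higher and 28 lower without HGI 3. Both diets number their mice from 1 to 5, but same-numbered mice did not deviate together (correlations from -0.13 to 0.04, and 0 of 5 HGI mice correlated best with their own number). No pairing by number was thus seen, but 5 such correlations cannot exclude one. With the number as a replicate block 33 probe sets passed, 0 of them members. The cause of these shifts was not tested. Dim signal limits Pdk3, 1 probe set of Pdk1 and 1 of Dld.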
